A study of Mus musculus with 10 samples.

Results

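The 10 genes described here make, move or regenerate the retinoids of vision, and they were measured in the retinas of WT and rd10 mice. They are the pigment epithelium genes Rpe65, Lrat, Rdh5, Rgr and Stra6, the glial and epithelial gene Rlbp1, the photoreceptor genes Rdh12, Rdh8 and Rbp3, and Aldh1a1, which makes retinoic acid. They were taken from a list of retinoid genes of rods, Müller glia and pigment epithelium, and all 10 of the 10 listed were among the 11702 genes of the deposited gene table. They were chosen by name and by presence in that table and not by their level, but the list was drawn up with earlier results of these data known, so the values that follow describe these genes.

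The 10 libraries were made from retinas of female mice. The rd10 mouse (strain B6.CXB1-Pde6brd10/J) carries a missense mutation of Pde6b, which encodes a subunit of the rod phosphodiesterase, in the germline, and its rods degenerate in the first weeks of life. The strain of the WT mice is not given in the sources used here. Vehicle (DMSO) or 20 µM halofantrine (HAL) was given into the vitreous, 1 µL per eye, at P10 and P24, and the tissue was taken at P36. There were 4 WT DMSO libraries (W1 to W4), 3 rd10 DMSO libraries (D1 to D3) and 3 rd10 HAL libraries (H1 to H3), so the WT mice received vehicle alone. Of the rd10 libraries, D1, D2 and H1 carry the label batch 1, as W1 to W4 do, while the remaining 3 (D3, H2, H3) carry batch 2. The titles also name a set for each library, set1 for W1 to W3, set1_5 for W4, set2 for D1, D2 and H1, last for H2 and H3 and final for D3. No WT library shares a set with an rd10 library, so genotype and set cannot be told apart. What a batch or a set was is not said.

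In the visual cycle, light turns the cis form of retinal bound to the visual pigment into the all-trans form, which is reduced to retinol in the photoreceptor. Retinol then crosses to the pigment epithelium, where it is esterified, isomerised back to the cis form, oxidised and returned. Müller glia hold a second set of retinoid carriers, and a side branch oxidises retinal to retinoic acid, a ligand of nuclear receptors.

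Pde6b was used to check the labels. Levels are given in CPM, the share of a library's counts that fell on a gene, after TMM scaling over all 10 libraries. Pde6b stood at 2699 to 2855 CPM in W1 to W3 and at 125 to 387 CPM in the 6 rd10 libraries, but W4 had 93.1 CPM. The sum of 14 rod markers showed the same order, with 77040 to 81420 CPM in W1 to W3, 3847 to 11410 CPM in rd10 and 3010 CPM in W4, although 1 of them, Gngt1, was lower in H1 (76.3 CPM) than in W4 (79.1 CPM). W4 is therefore called the library labelled WT W4, was kept in its labelled group, and the calls in each comparison with WT are given with and without it. Library totals ran from 15512212 counts in D3 to 38160436 in D2. The labels do not say in so many words that each library is 1 mouse, and the p-values measure the spread between these libraries.

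The start regions of 5 genes are shown, those of Rbp3, Rdh12 and Rdh8 because these were the members far lower in rd10, and those of Rpe65 and Rgr because these were the pigment epithelium genes with the widest spread within WT. Lrat spread almost as widely, but its window holds none of the motifs marked here and is not shown. Each runs 5′ to 3′ on the gene's strand from 250 bases before to 50 bases after the RefSeq gene start in GRCm38.p6, an older build than the GRCm39 named in the submitters' processing notes. Capitals mark the core of the homeodomain motif of Crx and Otx2, which reads TAATCC on one strand with the complement GGATTA on the opposite one. They also mark the Nrl-type motif, which reads TGCTGA with the complement being TCAGCA, and the E-box of the Mitf type, which reads CATGTG with the complement being CACATG.

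Rbp3, chr14:33953753-33954052, plus strand: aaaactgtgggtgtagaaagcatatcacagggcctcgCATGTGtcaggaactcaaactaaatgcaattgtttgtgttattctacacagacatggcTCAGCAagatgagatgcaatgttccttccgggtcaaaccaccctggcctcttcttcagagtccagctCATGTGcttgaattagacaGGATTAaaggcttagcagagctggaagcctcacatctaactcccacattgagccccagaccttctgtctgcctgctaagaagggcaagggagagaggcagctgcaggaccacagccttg

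Rdh12, chr12:79208663-79208962, plus strand: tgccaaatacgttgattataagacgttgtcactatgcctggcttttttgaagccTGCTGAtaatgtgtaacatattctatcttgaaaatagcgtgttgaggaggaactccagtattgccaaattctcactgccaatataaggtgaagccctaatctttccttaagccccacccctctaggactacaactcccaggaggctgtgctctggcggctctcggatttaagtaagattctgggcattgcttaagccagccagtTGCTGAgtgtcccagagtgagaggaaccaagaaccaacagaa

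Rdh8, chr9:20818244-20818543, plus strand: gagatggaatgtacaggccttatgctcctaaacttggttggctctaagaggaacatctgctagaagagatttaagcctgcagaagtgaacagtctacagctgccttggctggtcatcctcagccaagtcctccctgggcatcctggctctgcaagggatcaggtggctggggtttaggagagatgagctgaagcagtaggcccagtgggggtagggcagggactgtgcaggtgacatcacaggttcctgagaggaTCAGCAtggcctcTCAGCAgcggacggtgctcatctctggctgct

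Rpe65, chr3:159598931-159599230, plus strand: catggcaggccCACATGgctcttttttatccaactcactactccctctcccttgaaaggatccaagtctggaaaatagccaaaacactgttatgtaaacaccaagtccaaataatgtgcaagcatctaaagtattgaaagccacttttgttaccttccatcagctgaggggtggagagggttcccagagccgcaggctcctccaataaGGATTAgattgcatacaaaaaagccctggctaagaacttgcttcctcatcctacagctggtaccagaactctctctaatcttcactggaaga

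Rgr, chr14:37048965-37049264, minus strand: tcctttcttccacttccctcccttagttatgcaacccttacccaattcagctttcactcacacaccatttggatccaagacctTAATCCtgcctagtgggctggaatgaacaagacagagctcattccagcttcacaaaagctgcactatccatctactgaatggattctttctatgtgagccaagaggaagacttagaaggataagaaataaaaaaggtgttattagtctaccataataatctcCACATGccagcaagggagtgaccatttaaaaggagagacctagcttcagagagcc

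All 10 genes matched a promoter entry, with 14 windows in all because Stra6 and Aldh1a1 have several starts. TAATCC, which occurs on either strand in 7.06% of 32851 mouse promoter windows, was found in 3 genes: at position -69 of Rbp3, -42 of Rpe65 and -167 of Rgr. TGCTGA, present in 19.5% of windows, was found in 6 genes: Rbp3, Rdh12, Rdh8, Stra6, Rlbp1 and Aldh1a1. CATGTG, present in 14.2% of windows, was found in Rpe65, Rgr, Rlbp1 and Rbp3, and the palindromic E-box CACGTG, present in 7.15%, in none. The motifs share no bases in the windows shown. A match describes the letters of a window and is not evidence of a bound site.

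The 3 photoreceptor genes were far lower in rd10 retinas than in W1 to W3, whether or not the mice had received halofantrine. The mean of the 6 rd10 libraries was 7.89-fold lower for Rdh12, 5.44-fold lower for Rdh8 and 3.53-fold lower for Rbp3. Retinas lose rods in this model, and in bulk RNA fewer cells of a type cannot be told apart from less RNA per cell.

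Rdh12, a reductase of the photoreceptor inner segment that clears retinal, stood at 505, 534 and 505 CPM in W1 to W3 and at 31.4 CPM in W4. In rd10 DMSO it was at 38.5, 46.9 and 111 CPM, and in rd10 HAL at 41.1, 82.4 and 71.2 CPM. W4 lay below all 6 rd10 libraries, and W1 to W3 lay above all of them. Without W4, the WT libraries did not overlap with rd10 DMSO for 69.1% of all genes, and with rd10 HAL for 76.3%. Rdh8, which reduces all-trans-retinal in the rod outer segment, stood at 139, 143 and 130 CPM in W1 to W3 and at 14.7 CPM in W4. It was at 17.9, 21.6 and 37.3 CPM in rd10 DMSO and at 18.2, 29.2 and 27.2 CPM in rd10 HAL, with the same order of the libraries labelled WT. Rbp3 encodes the retinoid carrier that photoreceptors secrete into the matrix facing the pigment epithelium. It stood at 5324, 5277 and 6616 CPM in W1 to W3, at 1233 CPM in W4, at 1364, 1573 and 1667 CPM in rd10 DMSO and at 1396, 1949 and 1798 CPM in rd10 HAL.

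**Figure D1:**
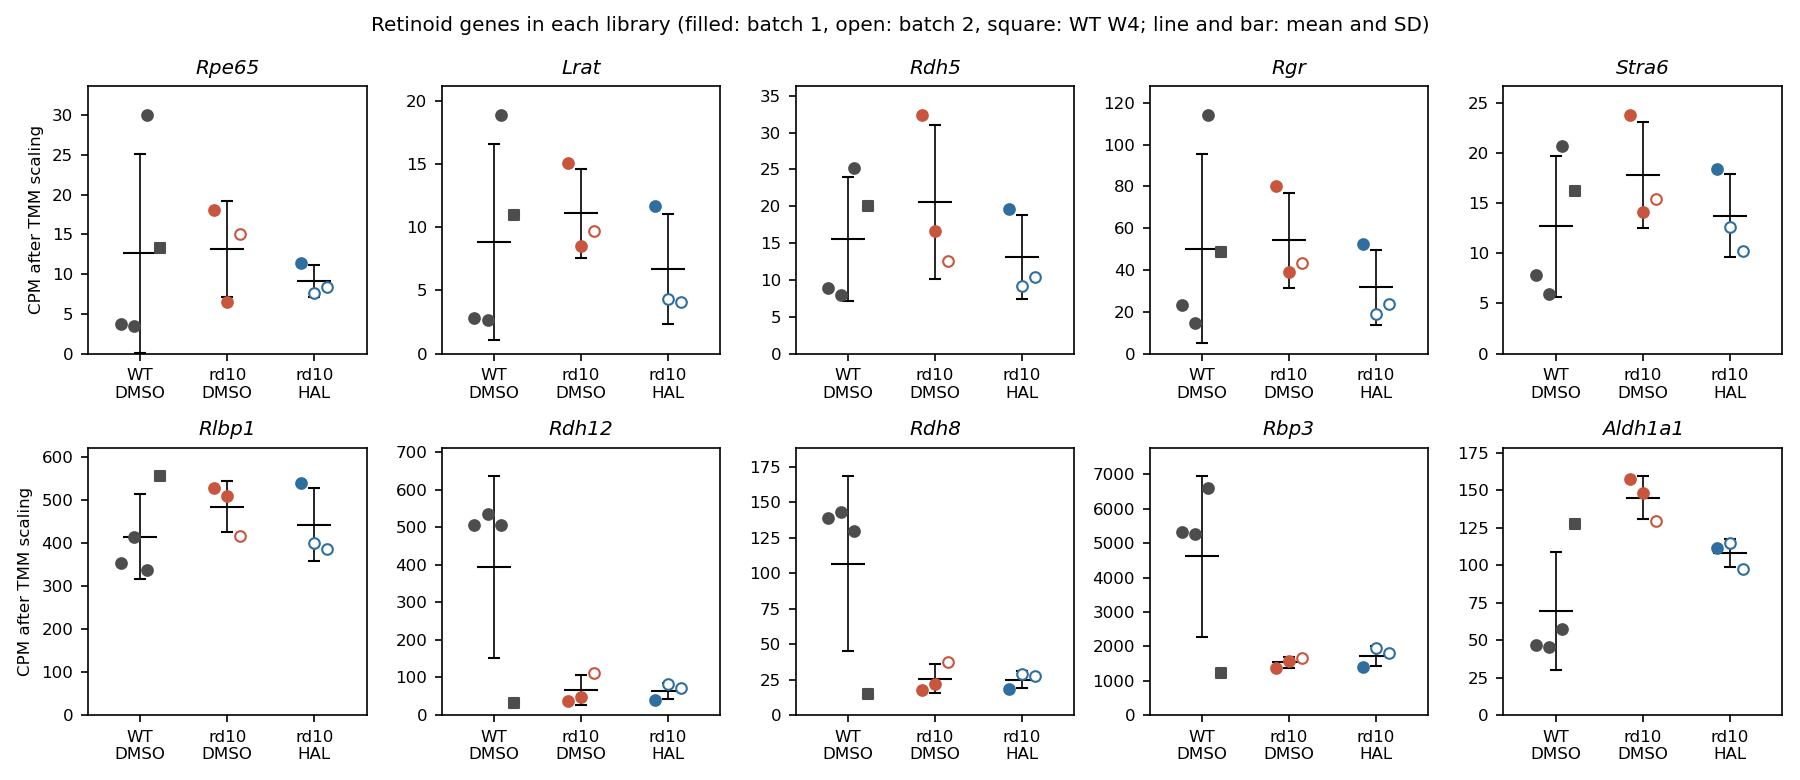
CPM of each of the 10 retinoid genes in every library by group (vertical axes start at 0; filled points are batch 1, open points batch 2, the square is the library labelled WT W4, lines and bars are the group mean and SD with n = 4, 3 and 3). W4 sits among or below the rd10 libraries for Rdh12, Rdh8 and Rbp3, and Rpe65, Lrat and Rgr have both their lowest and their highest library within WT, whereas Rdh5 and Stra6 are highest in D1.

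With W4 in its labelled group, edgeR's quasi-likelihood test called 0 of the 10 genes between rd10 DMSO and WT DMSO at an adjusted p under 0.05, against a background of 0% of 11698 genes. At an unadjusted p under 0.05 it listed 3108 genes and 4 of the 10, and DESeq2 called 589 genes (5.03%) and 3 of the 10. The log2 fold changes were -2.58 (SE 0.92) for Rdh12, -2.06 (SE 0.73) for Rdh8 and -1.59 (SE 0.52) for Rbp3, each with an edgeR adjusted p of 0.187. Without W4, the same test called 5 of 10 genes, 2 higher and 3 lower, against a background of 62.2% of 11696 genes (32.3% higher and 29.9% lower). A share of 5 in 10 is no larger than that background. The 3 lower genes were Rdh12 at -2.97 (SE 0.38, edgeR adjusted p 0.000418), Rdh8 at -2.43 (SE 0.25, adjusted p 0.000152) and Rbp3 at -1.89 (SE 0.13, adjusted p 3.67e-05).

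The comparison of rd10 HAL with WT DMSO rests on the same WT libraries. With W4, 0 of the 10 genes were called by edgeR against a background of 0.00855% (1 gene of 11699). At an unadjusted p under 0.05 there were 4050 genes and 3 of the 10, and DESeq2 called 2221 genes (19% of all) and 3 of the 10. The log2 fold changes with W4 were -2.60 (SE 0.88) for Rdh12, -2.10 (SE 0.72) for Rdh8 and -1.43 (SE 0.53) for Rbp3, each with an edgeR adjusted p of 0.135. Without W4, 4 of 10 genes were called, 1 higher and 3 lower, against 71.9% of all genes (35.7% higher and 36.2% lower). Rdh12 was at -2.99 (SE 0.22, edgeR adjusted p 4.74e-06), Rdh8 at -2.46 (SE 0.15, adjusted p 2.03e-06) and Rbp3 at -1.74 (SE 0.14, adjusted p 8.75e-06). Exact permutation tests of the 6 rd10 against all 4 WT libraries gave a two-sided p of 0.0667 for each of Rdh12, Rdh8 and Rbp3, where the smallest possible is 0.00476.

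**Figure D2:**
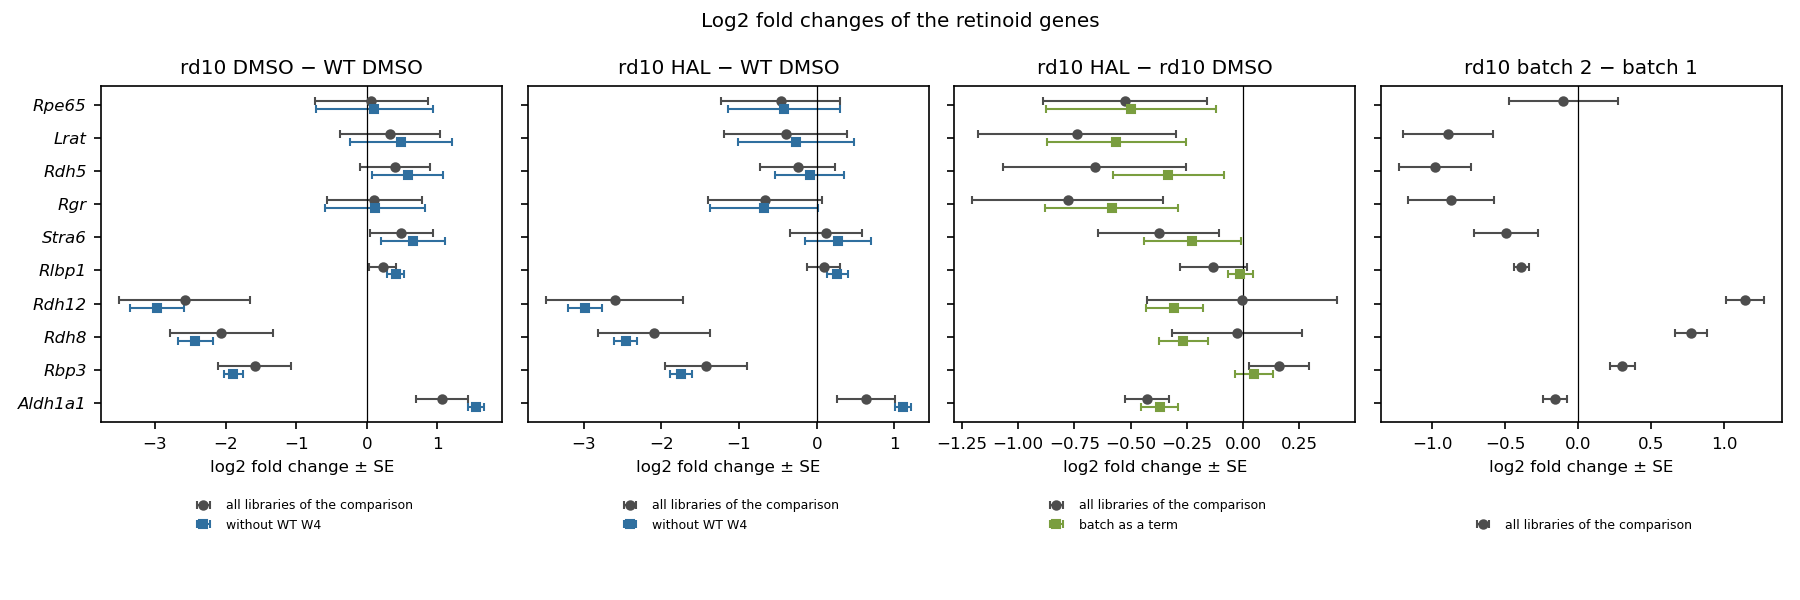
Log2 fold change with its SE for the 10 genes in 4 comparisons: rd10 DMSO minus WT DMSO, rd10 HAL minus WT DMSO, rd10 HAL minus rd10 DMSO and rd10 batch 2 minus batch 1 (circles, all libraries of the comparison; squares, without the library labelled WT W4 or with batch as a term). The Rdh12, Rdh8 and Rbp3 bars lie left of 0 in both WT comparisons and narrow without W4, from an SE of 0.92 to 0.38 for Rdh12 in rd10 DMSO, while the 5 pigment epithelium genes have SEs of 0.45 to 0.80 there and points between 0.07 and 0.49.

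The loss of the photoreceptor genes was graded. In the 6 rd10 libraries together, Rdh12 averaged 12.7%, Rdh8 18.4% and Rbp3 28.3% of the mean of W1 to W3. The summed level of 14 rod markers averaged 8.70% of that mean. The 10 cone markers together averaged 109% of it, with 2128 to 2286 CPM in W1 to W3, 2095 CPM in W4 and 2116 to 2701 CPM in rd10. That sum joins genes that differed in opposite ways. The short-wavelength opsin gene Opn1sw averaged 56.3% of W1 to W3 and lay below them in every rd10 library (138 to 448 against 471 to 535 CPM), whereas Pde6c averaged 170%, Gnb3 158% and Cnga3 153%. Rbp3, which cones also express, was the least reduced of the 3 in every rd10 library, and Rdh12 the most. How much of each residual level came from cones was not tested.

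The flippase Abca4, which moves retinal adducts across the disc membrane, was outside the 10 and, without W4, fell with them. It was at 2073 to 2422 CPM in W1 to W3, at 248 CPM in W4 and at 254 to 432 CPM in the rd10 libraries, and its log2 fold change without W4 was -2.75 (SE 0.20, edgeR adjusted p 4.3e-05) in rd10 DMSO and -2.65 (SE 0.17) in rd10 HAL. With W4 it was -2.39 (SE 0.72, edgeR adjusted p 0.187) and -2.29 (SE 0.72, adjusted p 0.135), and edgeR did not call it.

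**Figure D3:**
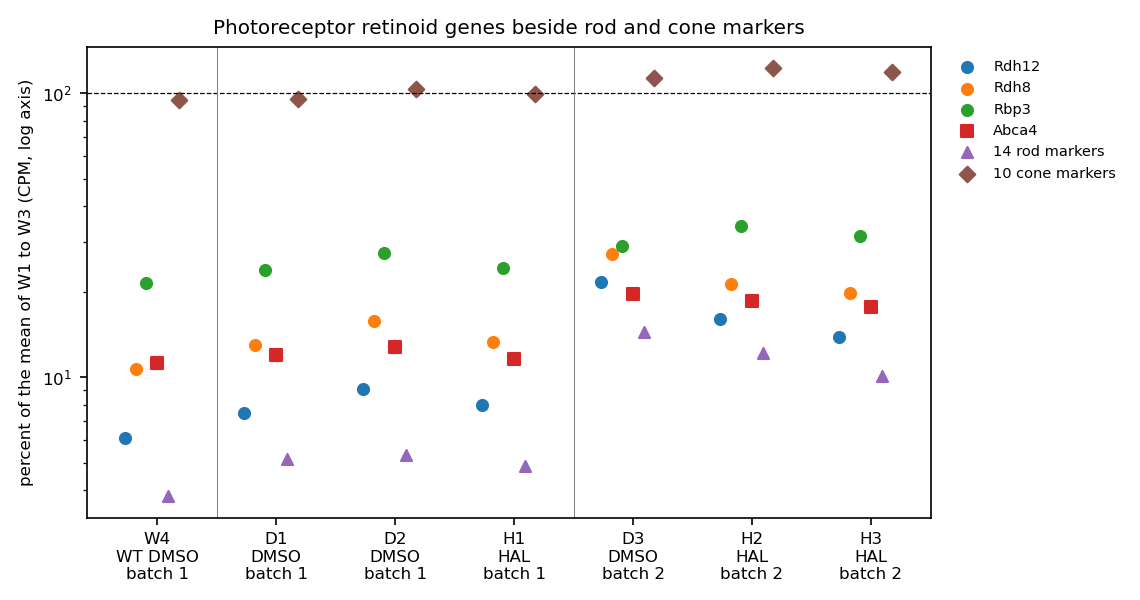
Levels of Rdh12, Rdh8, Rbp3, Abca4, the summed 14 rod markers and the summed 10 cone markers in W4 and the 6 rd10 libraries, as percent of the mean CPM of W1 to W3 (log axis, 1 point per library, dashed line at 100%). Rod markers lie lowest, Rdh12, Rdh8 and Rbp3 above them in that order, the summed cone markers near 100%, and the 3 batch 2 libraries lie above the 3 rd10 libraries of batch 1 for all the rod genes shown.

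Among the 6 rd10 libraries the photoreceptor genes followed the batch. The coefficient of batch, fitted beside treatment, called 3 of the 10 genes, 2 higher and 1 lower in batch 2, against a background of 4.63% of 11698 genes (3.09% higher and 1.55% lower). Rdh12 averaged 88.3 ± 20.8 CPM (SD, n = 3) in batch 2 and 42.2 ± 4.30 CPM (SD, n = 3) in batch 1, a log2 difference of 1.14 (SE 0.13, edgeR adjusted p 0.00555). Rdh8 was 0.77 higher (SE 0.11, edgeR adjusted p 0.0128), at 31.3 ± 5.35 against 19.2 ± 2.07 CPM (SD, n = 3 each). For Rbp3 the difference was 0.30 (SE 0.08, edgeR adjusted p 0.0799), with 1667 to 1949 CPM in batch 2 and 1364 to 1573 CPM in batch 1, and Abca4 was 0.66 higher (SE 0.05, adjusted p 0.00168). The rod markers summed to 8001 to 11410 CPM in batch 2 and to 3847 to 4213 CPM in batch 1, and their part in these differences was not tested.

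The batch calls rested in part on D3, the shallowest library and the highest rd10 library for Rdh12 and Rdh8. Without D3 only 1 of the 10 genes, Rlbp1, was called, against a background of 0.778% (91 genes), with Rdh12 at 0.90 (edgeR adjusted p 0.0541) and Rdh8 at 0.63 (adjusted p 0.114). Without D2, 6 of the 10 were called, against 1.81% (212 genes).

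Rlbp1, the carrier that binds cis-retinoids in Müller glia and pigment epithelium, was among the higher expressed of the 10 genes in every library. It stood at 354, 415 and 338 CPM in W1 to W3, at 556 CPM in W4, at 529, 509 and 417 CPM in rd10 DMSO and at 541, 401 and 386 CPM in rd10 HAL. The rd10 DMSO libraries lay above W1 to W3 by a small margin, and the rd10 HAL libraries overlapped them. Without W4 the difference from WT was 0.41 (SE 0.12, edgeR adjusted p 0.0174) for rd10 DMSO, against 0.22 (SE 0.19, adjusted p 0.401) with it, and for rd10 HAL it was 0.26 (SE 0.13, adjusted p 0.103) without W4 and 0.09 (SE 0.21, adjusted p 0.741) with it.

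Within rd10, Rlbp1 was lower in batch 2 than in batch 1 in all 3 libraries. The means were 402 ± 15.3 CPM and 526 ± 16.2 CPM (SD, n = 3 each), a log2 difference of -0.39 (SE 0.05, edgeR adjusted p 0.0125). Without H3 the difference was -0.36 and was not called (adjusted p 0.054). The difference of rd10 DMSO from WT thus contains D1 and D2 at 138% to 144% and D3 at 113% of the mean of W1 to W3, and all WT libraries are of batch 1 and of other sets.

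Rlbp1 stood nearer to its WT level than the Müller glia markers as a sum. The summed level of 14 Müller glia markers that leaves Rlbp1 out was 4692 to 4801 CPM in W1 to W3, 9140 CPM in W4 and 7996 to 9188 CPM in rd10, or 183% of the mean of W1 to W3 on average, against 126% for Rlbp1. Glul, the most abundant of them, averaged 154%, and all the markers but Car2 (105%) stood above Rlbp1. A sum of 9 gliosis markers such as Gfap and Serpina3n averaged 436% of that mean. The difference between these shares was not tested. CPM are shares of a library, rod markers held a smaller share of the rd10 libraries, and the part of this in the higher glial levels was not tested.

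Aldh1a1, which oxidises retinal to retinoic acid and is known for its dorsal restriction in the mouse retina, was the member with the largest rise. It stood at 46.9, 45.4 and 57.6 CPM in W1 to W3 and at 127 CPM in W4. In rd10 DMSO it was at 157, 148 and 129 CPM, above every WT library with W4 included. Its log2 difference in rd10 DMSO was 1.06 (SE 0.37, edgeR adjusted p 0.187) with W4 and 1.55 (SE 0.11, adjusted p 4.08e-05) without it. Groups that do not overlap, as here with W4, were found for 10.1% of genes.

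In rd10 HAL, Aldh1a1 was at 112, 114.7 and 97.1 CPM, above W1 to W3 and below W4. With W4, rd10 HAL and WT did not overlap for 18.8% of genes, and Aldh1a1 was not among them. Its difference from WT was 0.64 (SE 0.37, edgeR adjusted p 0.221) with W4 and 1.11 (SE 0.10, adjusted p 1.32e-05) without it. A sum of 3 dorsal retina markers was at 42.2 to 42.5 CPM in W1 to W3 and at 71.4 to 95.4 CPM in rd10, and a sum of 2 ventral markers at 60.3 to 64.3 and 78.2 to 120 CPM. The ventral sum was carried by Ephb2, at 38.1 to 40.8 CPM in W1 to W3 and 68.7 to 102 CPM in rd10, while the ventral gene Vax2 was lower in every rd10 library, at 9.53 to 19.7 CPM against 22.2 to 24.1 CPM. The part of dorsal and ventral tissue in the level of Aldh1a1 was not tested.

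**Figure D4:**
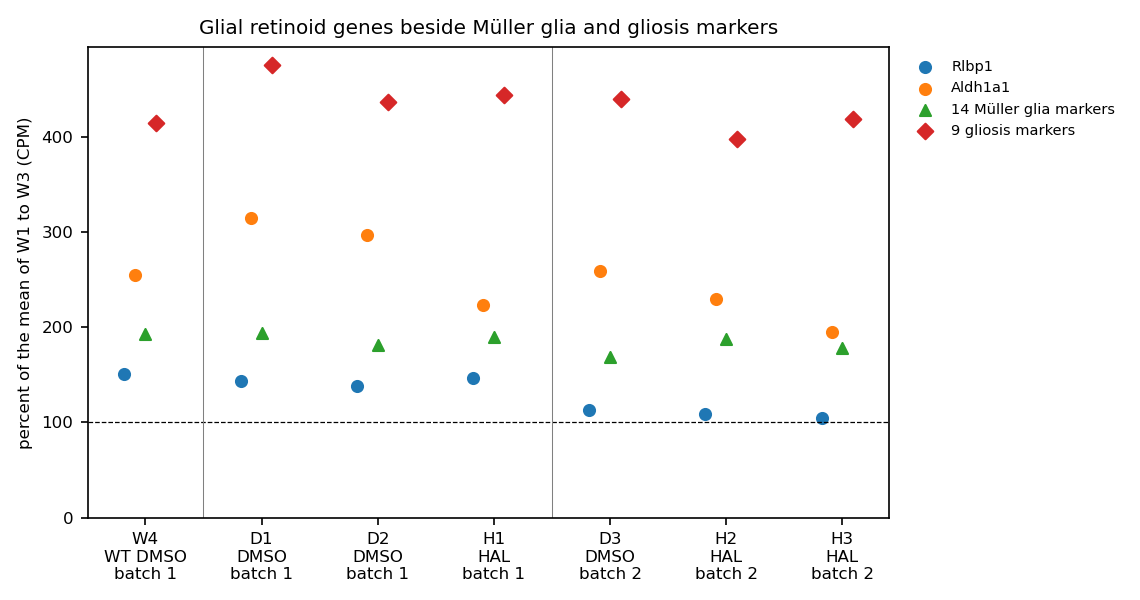
Levels of Rlbp1, Aldh1a1, the summed 14 Müller glia markers and the summed 9 gliosis markers in W4 and the 6 rd10 libraries, as percent of the mean CPM of W1 to W3 (vertical axis from 0, 1 point per library, dashed line at 100%). Rlbp1 lies between 105% and 151%, Aldh1a1 between 194% and 315%, and the gliosis sum between 398% and 476%.

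Between rd10 HAL and rd10 DMSO no retinoid gene was called. The edgeR test called 0 of the 10 genes and 0% of 11692 genes, listed 557 genes and 1 of the 10 at an unadjusted p under 0.05, and DESeq2 called 4 genes (0.0342%) and 0 of the 10. That 1 gene was Aldh1a1, at 108 ± 9.36 CPM (SD, n = 3) in rd10 HAL and 145 ± 14.4 CPM (SD, n = 3) in rd10 DMSO. Its log2 difference was -0.43 (SE 0.10, edgeR adjusted p 0.883), rank 9 of all genes by p, and -0.37 (SE 0.08, adjusted p 0.269) with batch as a term. The HAL libraries lay below all DMSO libraries, as non-overlapping groups did in either direction for 13.1% of genes, and the exact permutation p was 0.1, the smallest that 3 against 3 allow. The difference was -0.45 within batch 1, where D1, D2 and H1 are also of one set, and -0.29 within batch 2, where the HAL libraries carry the set name last and the DMSO library final. This pattern of Aldh1a1 was known before the gene list was drawn up, so it is a description and gives no independent support.

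The other 9 genes overlapped between rd10 HAL and rd10 DMSO. The 5 pigment epithelium genes were at -0.78 (Rgr, SE 0.42) to -0.38 (Stra6, SE 0.27), all with an edgeR adjusted p of 0.883. With batch as a term Rgr was at -0.58, Lrat at -0.56, Rpe65 at -0.50, Rdh5 at -0.33 (from -0.66 without it) and Stra6 at -0.23 (edgeR adjusted p 0.348 to 0.584). The differences in mean log2 CPM lay mostly within batch 2, against the single DMSO library D3, at -0.914 for Rpe65, -1.192 for Lrat, -1.026 for Rgr, -0.436 for Stra6 and -0.362 for Rdh5. Within batch 1 they were 0.072, 0.046, -0.097, 0.001 and -0.237 in the same order. The values without the batch term moved with H1. Without it, 7 of the 10 genes had an unadjusted p under 0.05, against 6.03% of all genes, and 0 were called. Lrat was then at -1.40 (SE 0.28, edgeR adjusted p 0.596), Rgr at -1.34 (SE 0.34, adjusted p 0.8) and Rdh5 at -1.07 (SE 0.40, adjusted p 0.8). The HAL libraries left are both of batch 2, while D1 and D2 are of batch 1. Over all the libraries left out in turn, Lrat ranged from -1.404 to -0.443, Rgr from -1.34 to -0.376 and Rdh5 from -1.073 to -0.167. Rpe65 ranged from -0.869 to -0.213 and Stra6 from -0.639 to -0.102. Among epithelial markers outside the 10, Pmel averaged 92.0 ± 70.2 CPM in rd10 DMSO and 25 ± 2.92 CPM in rd10 HAL. Tyrp1 averaged 58.6 ± 45.1 and 14.6 ± 2.4 CPM, and Dct 134 ± 90.5 and 38.5 ± 7.02 CPM (SD, n = 3 each). Pmel was at 12.85 CPM in D2 and 147 CPM in D3, against 24.8 and 27.9 CPM in H2 and H3. Mitf and Rrh averaged 12.0 and 37.5 CPM in rd10 DMSO and 11.6 and 38.8 CPM in rd10 HAL. The part of adherent epithelium was not tested. In log2 difference, Rdh12 was at -0.0036 (SE 0.42) and Rdh8 at -0.03 (SE 0.29) without the batch term, and at -0.31 (SE 0.13, edgeR adjusted p 0.296) and -0.27 (SE 0.11, adjusted p 0.289) with it. Rbp3 was at 0.16 (SE 0.13) and Rlbp1 at -0.13 (SE 0.15), and with the batch term at 0.05 (SE 0.08) and -0.01 (SE 0.05). The HAL group holds 2 libraries of batch 2 and the DMSO group 1, and for each of the 10 genes but Rpe65 and Aldh1a1 the coefficient of batch was larger in size than that of treatment in the same fit.

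Among the pigment epithelium genes, Rpe65, Lrat and Rgr had both their lowest and their highest value in WT libraries. The highest WT library exceeded the lowest 8.77-fold for Rpe65, 7.21-fold for Lrat and 7.72-fold for Rgr. For Rdh5 it did so 3.18-fold, against 4.10-fold over all 10 libraries, and for Stra6 3.51-fold against 4.04-fold. Rpe65, the isomerase of the visual cycle, was at 3.65 and 3.43 CPM in W1 and W2, at 30.1 CPM in W3 and at 13.3 CPM in W4. It was at 18.1, 6.45 and 15.1 CPM in rd10 DMSO and at 11.4, 7.59 and 8.35 CPM in rd10 HAL. Every rd10 library thus lay between the lowest and the highest WT library. Lrat, which esterifies retinol for Rpe65 to act on, followed the same order in WT, with 2.80, 2.62, 18.9 and 10.96 CPM. In rd10 DMSO Lrat was at 15.1, 8.51 and 9.66 CPM, and in rd10 HAL at 11.7, 4.33 and 4.04 CPM.

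Rgr, an opsin of the pigment epithelium and Müller glia that isomerises retinal in light, was at 23.4, 14.8, 114 and 48.4 CPM in W1 to W4. In rd10 DMSO it was at 80.3, 38.8 and 43.5 CPM, and in rd10 HAL at 52.2, 19.1 and 23.8 CPM. Here too W3 was the highest of all 10 libraries. Rdh5, which oxidises cis-retinol to cis-retinal in the epithelium, ranged from 7.91 to 25.1 CPM in WT, from 12.6 to 32.4 CPM in rd10 DMSO and from 9.19 to 19.7 CPM in rd10 HAL. Stra6, the receptor through which the epithelium takes up retinol from its blood carrier, ranged from 5.90 to 20.7, from 14.2 to 23.8 and from 10.2 to 18.4 CPM. Both were highest in D1.

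W3 exceeded the mean of W1 and W2 by 8.49-fold for Rpe65, 6.98-fold for Lrat, 5.98-fold for Rgr, 3.02-fold for Stra6 and 2.98-fold for Rdh5, but was at 0.879 of it for Rlbp1. None of the 5 was called by edgeR in either WT comparison with or without W4. For Rpe65 the log2 difference of rd10 DMSO from WT was 0.07 (SE 0.80, edgeR adjusted p 0.955), 0.11 (SE 0.83) without W4 and 0.95 (SE 0.66, adjusted p 0.402) without W3. For rd10 HAL it was -0.47 (SE 0.77, adjusted p 0.641) and turned to 0.42 (SE 0.58, adjusted p 0.615) without W3. Lrat, Rdh5 and Rgr changed sign in the same way in rd10 HAL without W3, to 0.28, 0.08 and 0.13. With SEs of 0.45 to 0.80 in rd10 DMSO against WT, differences of the sizes measured for these 5 genes were not detectable.

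Several other epithelial genes shared the excess of W3 over W1 and W2, by 4.95-fold for Ttr, 4.38-fold for Tyrp1, 4.02-fold for Slc6a20a, 3.65-fold for Dct and 3.11-fold for Pmel, while Mitf, Rrh and Trpm1 did not (0.994 to 1.04). Over all 10 libraries their order differed from that of the members. Ttr, the carrier of thyroid hormone and of the retinol-binding protein complex, was at 21.1 and 18.8 CPM in W1 and W2, at 98.4 CPM in W3, at 112 CPM in W4 and at 63.8 to 189 CPM in rd10. Pmel, a structural protein of melanosomes, stood at 5.69, 5.14 and 16.9 CPM in W1 to W3, at 53.5 CPM in W4, and was highest in D1 with 116 CPM and D3 with 147 CPM. Tyrp1 and Dct, enzymes of melanin synthesis, had their 2 highest values in the same 2 libraries. W3 thus led for the visual cycle genes Rpe65, Lrat and Rgr, and D1 and D3 for the melanosome genes.

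Of 16 further epithelial markers, 8 were in the gene table. From the transcript table, Best1, a channel of the epithelium, was at 0.27 to 1.26 CPM in all libraries, and the melanocyte and epithelium gene Mlana was highest in D1 at 25.5 CPM and D3 at 14.2 CPM. The other 8 also had W3 above the mean of W1 and W2, by 7.91-fold for Kcnj13, 6.12-fold for Mlana and 5.81-fold for Oca2. The excess was 5.52-fold for Tyr, 3.36-fold for Slc16a8, 2.80-fold for Ermn, 2.65-fold for Slc45a2 and 1.54-fold for Best1. Levels were low, with Kcnj13 at 0.71 to 8.59 CPM, highest in D1, and Slc45a2 at 0.13 to 2.89 CPM. Of 6 choroid and sclera genes, the 2 in the gene table summed to 4.74, 6.81 and 21.1 CPM in W1 to W3, to 41.9 CPM in W4 and to 15.4 to 48.3 CPM in rd10. From the transcripts, W3 was at 10.6 (Ogn) and 2.52 (Col1a2) times the mean of W1 and W2 for the 2 genes of that sum. For the others it was at 0.786 (Col1a1), 0.580 (Col3a1), 0.471 (Lum) and 1.83 (Dcn) times that mean. Dcn was highest in D1 (12.8 CPM) and D3 (24.1 CPM), against 0.82 to 3.2 CPM in rd10 HAL. Lum was too, at 2.35 and 3.52 CPM against 0.03 to 0.11 CPM. Col3a1 was at 3.71 to 5.28 CPM in rd10 DMSO and 1.22 to 1.89 CPM in rd10 HAL, and Col1a1 at 3.02 to 3.65 and 3.37 to 3.88 CPM. The tissue was labelled retina, and how much adherent epithelium each sample held was not tested.

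**Figure D5:**
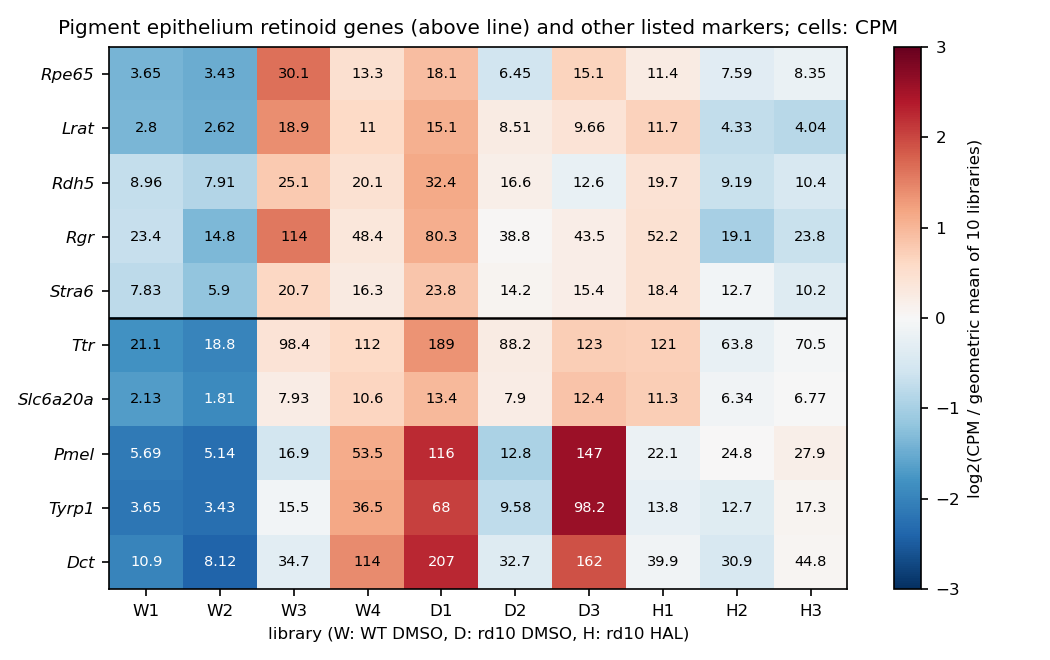
CPM (numbers) of the 5 pigment epithelium retinoid genes (above the line) and of Ttr, Slc6a20a, Pmel, Tyrp1 and Dct (below it) in the 10 libraries, coloured by log2 of the ratio to the gene's geometric mean over the libraries. W3 is the highest library for Rpe65, Lrat and Rgr at 30.1, 18.9 and 114 CPM, whereas D1 and D3 are the highest for Pmel, Tyrp1 and Dct.

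Within rd10, Rdh5 was lower in all 3 libraries of batch 2 than in those of batch 1, by -0.98 on the log2 scale (SE 0.25, edgeR adjusted p 0.0668). Groups that do not overlap were found for 27.9% of genes in that comparison. Lrat at -0.89 (SE 0.31), Rgr at -0.87 (SE 0.30) and Stra6 at -0.49 (SE 0.22) overlapped between the batches, as did Rpe65 at -0.10 (SE 0.38), and none was called.

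Levels of different genes were compared per transcript length, in TPM, which divide each transcript's counts by its length. In W1 to W3 Rbp3 led with 2235 TPM, followed by Rdh12 at 605, Rlbp1 at 397 and Rdh8 at 202 TPM. Rgr (54.5 ± 60.0 TPM), Aldh1a1 (50.4 ± 6.56 TPM) and Rdh5 (29.4 ± 19.9 TPM, SD, n = 3 each) came next and did not differ beyond their spread. Rpe65 at 13.7, Stra6 at 8.76 and Lrat at 3.13 TPM were lowest, and each neighbour from Rdh5 to Lrat overlapped the next. In rd10 DMSO the order was Rbp3 at 734, Rlbp1 at 626, Aldh1a1 at 179, Rdh12 at 95.7, Rgr at 65.5, Rdh5 at 54.4, Rdh8 at 46.1, Rpe65 at 17.9, Stra6 at 17.1 and Lrat at 5.23 TPM. Rlbp1 lay above Rdh12 in all 3 libraries, but Aldh1a1 in D1 and D2 and not in D3, where it was at 158 and Rdh12 at 166 TPM. Neighbours in this order overlapped, apart from Rlbp1 and Aldh1a1, Rdh8 and Rpe65, and Stra6 and Lrat.

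The counts of each gene equalled the sum of its transcripts within 1 count in all libraries. Rbp3, Rdh8 and Lrat had a single transcript. For Rdh12, the coding transcript Rdh12-201 held 80.1% ± 2.81 (SD, n = 4) of the gene's counts in WT DMSO and 75.4% ± 2.89 (SD, n = 3) in rd10 DMSO, and Rdh12-204, a transcript that retains an intron, held 18.7% ± 3.48 and 22.0% ± 2.05. The share of Rdh12-201 was 81.1% to 81.9% in W1 to W3, but 75.9% in W4, which lay within the 73.1% to 78.7% of the rd10 libraries. Rlbp1 was shared almost equally between Rlbp1-202 and Rlbp1-201, at 46.5% ± 1.45 and 47.5% ± 1.28 in WT DMSO, at 47.5% ± 2.72 and 47.4% ± 2.86 in rd10 DMSO and at 51.6% ± 4.99 and 43.2% ± 4.82 in rd10 HAL. The 3 libraries of batch 2 had the highest shares of Rlbp1-202, at 50.4% in D3, 51.7% in H2 and 56.5% in H3, and H1 was at 46.5%. Aldh1a1-201 held at least 96.2% of its gene's counts in every library. These shares are estimates from reads that fit several transcripts, and they were not tested.

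As a description over the 10 libraries, the genes most like the members in log2 CPM were found among 11686 genes. The highest Pearson r with Rbp3 included those of Ktn1 (0.998) and Ctcf (0.997). With Aldh1a1 they were Chst11 (0.991), Irgm1 (0.987) and Ifi35 (0.985), and with Rlbp1 Cspg5 (0.962), Fkbp2 (0.952) and mt-Rnr2 (0.951). Rpe65 had lower values, with F5 at 0.896, Slc6a13 at 0.896 and Ltbp2 at 0.888. The points share the 10 libraries and, for Rbp3 and Aldh1a1, the gap between W1 to W3 and the rest. Without W4, 2 of the 3 nearest genes stayed among the nearest 3 for Rbp3 and Aldh1a1, and 1 of the 3 for Rlbp1 and Rpe65.

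Of 66 other genes of retinoid metabolism and signalling, 32 were in the gene table, Ttr among them. With W4, edgeR called 0 of the 32 against WT, with 9 in rd10 DMSO and 8 in rd10 HAL at an unadjusted p under 0.05, beside 26.6% and 34.6% of all genes. DESeq2 called 2 and 5 of them, beside the 5.03% and 19% of all genes given above. Without W4, edgeR called 11 of them higher, 10 lower and 11 neither in rd10 DMSO, and the same numbers in rd10 HAL, beside the 62.2% and 71.9% of all genes given above. Their median log2 difference was 0.05 in rd10 DMSO, against -0.01 over all genes.

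The largest falls in rd10 DMSO without W4, after Abca4, were those of Dhrs3, a reductase of retinal, at -1.43 (SE 0.08, edgeR adjusted p 1.8e-05), and of the lipoprotein receptor Scarb1 at -1.16 (SE 0.07, adjusted p 1.9e-05). Dhrs3 stood at 78.3, 83.0 and 86.3 CPM in W1 to W3, at 30.0 CPM in W4 and at 27.9 to 33.1 CPM in rd10. The largest rises included those of Cyp1b1, a cytochrome that can oxidise retinol, at 1.53 (SE 0.12, adjusted p 5.5e-05), and of the nuclear receptor Nr2f1 at 0.90 (SE 0.18, adjusted p 0.00305). Cyp1b1 was at 9.63 to 11.7 CPM in W1 to W3, at 31.6 CPM in W4 and at 26.1 to 33.3 CPM in rd10. With W4 edgeR called none of these genes, with Dhrs3 at -1.19, Scarb1 at -0.93, Cyp1b1 at 0.93 and Nr2f1 at 0.55 (edgeR adjusted p 0.187 to 0.235).

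In rd10 HAL, Dhrs3 was at -1.44, Scarb1 at -1.20, Cyp1b1 at 1.57, Nr2f1 at 0.98 and the lipase Pnpla2 at 0.87 without W4. With W4 the values were -1.19, -0.96, 0.99, 0.65 and 0.68 in the same order, with edgeR adjusted p of 0.135 to 0.152. Between rd10 HAL and rd10 DMSO, edgeR and DESeq2 called 0 of the 32 genes, and 0 had an unadjusted p under 0.05. Between the rd10 batches edgeR called 1 of the 32, Abca4, beside 4.63% of all genes, and DESeq2 3, beside 12.1%.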

How the data were processed

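Retinal RNA of 10 libraries was analysed. The authors pseudoaligned stranded reads with Kallisto to Ensembl mouse transcripts (GRCm39 in the submitters' processing notes) and summarised them with tximport. The deposited tables hold estimated counts, 1 of 275112 transcripts and 1 of 11702 genes; 51.4% of the gene counts are whole, and 11492 gene IDs matched a symbol. The authors' deposited CPM table was used as a signal scaled by 1 factor per library, as an alternative. The deposited table of the halofantrine comparison holds the authors' fold changes and p-values and was not used.

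Estimated counts were rounded, filtered with filterByExpr, scaled by TMM and tested with the quasi-likelihood test of edgeR 4.0.16 (R 4.3.3), with Benjamini-Hochberg adjustment over all genes. A gene was called at an adjusted p under 0.05. Comparisons used the libraries of their 2 groups, and the batch coefficient was fitted beside treatment in the 6 rd10 libraries. SEs were derived from the test statistic. Log2 CPM used a prior count of 2. TPM were computed from transcript lengths of GENCODE M21, whose transcripts held 97.4% to 97.7% of the counts. Motifs were searched on both strands of RefSeq promoter windows. The fits were tested on simulated data.

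Alternatives were DESeq2 1.42.0, limma-voom (limma 3.58.1), no filter, scaling by library size, all 10 libraries in one fit, a batch term, log2 of the authors' CPM plus 1, and leaving out each library. Libraries of one group differed by a chi-square per gene of 4.48 to 431, so none was a copy. The genes, the marker and pathway lists and the rule for the other named genes (at most 3 per direction and comparison with the largest change among those called, and the 3 genes most correlated with 4 of the members) were chosen with earlier results of these data known. Not every gene that rule names is reported here.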

Additional observations from a re-analysis of the deposited data

Results flagged for a closer look

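The library labelled WT W4 stood apart in the WT DMSO group. The gap between the extreme library and its nearest neighbour, divided by the range of the 4 WT libraries, exceeded Dixon's critical value for Rdh12 (0.942), Rdh8 (0.895) and Aldh1a1 (0.851). It did so too for the summed markers of rods (0.944), Müller glia (0.976), gliosis (0.965), endothelium (0.939), amacrine cells (0.994), bipolar cells (0.909), dorsal retina (0.993) and ventral retina (0.927). These are 11 of 24 values examined in groups of 4, where chance gives about 1 in 20 for a single value. All 24 come from the same 4 WT libraries and are not independent, so their number does not test chance. W4 was the extreme library in each of the 11.

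Rlbp1 differed between rd10 HAL and rd10 DMSO by 0.06 on the log2 scale in batch 1 and by -0.083 in batch 2, with H1 above D1 and D2, and H2 and H3 below D3. The difference between the batches was not tested.

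Outside the gene-level comparisons, the transcript Rpe65-201 held 11.5%, 7.35% and 6.77% of the Rpe65 counts in H1, H2 and H3, or 35.4, 19.2 and 18.9 estimated counts, and under 0.5 counts in each of the 7 DMSO libraries. The rest of the Rpe65 counts lay almost wholly on Rpe65-202. The counts are few, the assignment of reads to transcripts is an estimate, and the difference was not tested.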

How the results depend on the processing

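With DESeq2 the number of the 10 genes called was 3 in rd10 DMSO against WT, 3 in rd10 HAL against WT and 6 between the rd10 batches, and the number of all genes called was 589, 2221 and 1421, and 4 in rd10 HAL against rd10 DMSO. In rd10 HAL against WT, limma-voom and the fit of all 10 libraries called 0 genes. Leaving out each library in turn, the genes called among the 10 ranged from 0 to 5, from 0 to 4, from 0 to 0 and from 1 to 6 in rd10 DMSO against WT, rd10 HAL against WT, rd10 HAL against rd10 DMSO and batch 2 against batch 1, and all genes called from 0 to 7280, from 0 to 8408, from 0 to 7 and from 91 to 2638. The upper ends of the first 2 are those without W4. The cause was not tested.

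Directions reversed only for differences that lay within 1 SE of 0 in the report. Rpe65 in rd10 HAL against WT was 0.075 with limma-voom and 0.024 with the authors' CPM. In rd10 HAL against rd10 DMSO, Rdh12 was 0.171 and 0.082 with the same settings, and Rdh8 was 0.087 with limma-voom. Rpe65 between the batches was 0.028 with limma-voom. Leaving out each library, the log2 difference of rd10 DMSO from WT ranged from -0.248 to 0.951 for Rpe65, from -0.073 to 0.734 for Rdh5 and from -0.275 to 0.906 for Rgr. For rd10 HAL from WT it ranged from -0.778 to 0.416 for Rpe65, -1.071 to 0.281 for Lrat, -0.661 to 0.083 for Rdh5, -1.226 to 0.13 for Rgr, -0.145 to 0.456 for Stra6 and -0.078 to 0.264 for Rlbp1. For rd10 HAL from rd10 DMSO it ranged from -0.271 to 0.606 for Rdh12 and from -0.226 to 0.337 for Rdh8, and between the batches from -0.513 to 0.320 for Rpe65.

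The directions of Rdh12, Rdh8, Rbp3 and Aldh1a1 in both WT comparisons held under each alternative run. Over 2 other scalings, each of 60 checks of a group level stayed within 1 SD. SDs of the WT group include W4 and can be wide, as for Rdh12 at 394 ± 242 CPM (SD, n = 4). No paired analysis was possible because the numbers after F in the titles restart in each set, and within a set no number occurs in more than one group. WT libraries are of batch 1 only, so genotype and batch cannot be told apart for D3, H2 and H3, and genotype and set name for any rd10 library.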
